A study of Homo sapiens with 12 samples.

Results

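The oleic acid effect common to cells with and without iron loading was measured in HEK293, a human embryonic kidney cell line, by setting 6 libraries given oleic acid against 6 without it, which are all 12 libraries of the series. The 6 with oleic acid were 3 from cells given oleic acid alone and 3 from cells given oleic acid with ferric ammonium citrate (FAC, an iron salt). The 6 without it were 3 from vehicle-treated cells and 3 from cells given FAC alone. FAC entered the comparison as a covariate, so each oleic acid library was compared at its own iron level. All cells were of the same line and no group carried a genetic change. Neither dose nor duration is stated in the labels, and nothing says whether replicates were separate cultures, so p-values speak only of the spread among the 12 libraries.

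Oleic acid is a monounsaturated fatty acid that cells activate to its acyl-CoA, store in lipid droplets, build into phospholipids or oxidise in mitochondria. Fatty acids also bind the peroxisome proliferator-activated receptors (PPARs), nuclear receptors that switch on genes of fatty acid uptake, storage and oxidation. CPT1A couples long-chain fatty acids to carnitine at the outer mitochondrial membrane, PDK4 restrains the use of pyruvate by phosphorylating pyruvate dehydrogenase, and PLIN2 coats lipid droplets. LPCAT1 re-acylates lysophosphatidylcholine in phospholipid remodelling.

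Total counts were 14098216 to 18717397 per library, and 14209 genes were tested. Levels are given as CPM, with library totals scaled by trimmed mean of M values, and 3 counts, the most that a count of 0 allows, came to 0.158 to 0.224 CPM. Oleic acid library 3 and oleic acid + FAC library 3 stood apart from the other 10 (the divergent libraries). They scored 40.8 and 62.0 on the first principal component (32.8% of the variance), against -24.7 to 9.69. In both, short transcripts were relatively abundant. A gene's distance from its group mean had a correlation across genes with transcript length (log2) of -0.64 and -0.49 in them, and of -0.35 to 0.51 in the other 10. Mitochondrially encoded mRNAs held 12.1% of counts in oleic acid + FAC library 3 and 3.33% to 7.50% elsewhere. Both libraries belong to the oleic acid side, so the main results are given with them and without them (4 against 6). Values given once are from all 12 libraries unless stated otherwise, and may depend on the divergent pair. Summed HEK293 markers (8 of 8 detected) were at 934 to 1974 CPM with oleic acid and 893 to 1400 CPM without it. VIM, a member of that list, was alone at 625 to 1427 CPM with oleic acid and 583 to 956 CPM without it. Its highest value was in oleic acid + FAC library 3. Markers of other cells were low on both sides: kidney tubule at 4.33 to 13.2 CPM with oleic acid and 6.83 to 11.8 CPM without it, with 4 of 8 at 0 in all libraries, and adipocyte at 0.234 to 0.497 CPM with it and 0.124 to 1.11 CPM without it. Summed fibroblast markers were at 9.86 to 19.1 CPM with oleic acid and 13.3 to 18.4 CPM without it, endothelial markers at 1.21 to 2.58 CPM with it and 1.30 to 2.27 CPM without it, and blood cell markers at 0.350 to 1.77 CPM with it and 0.289 to 1.89 CPM without it. Hepatocyte markers summed to 0 to 0.454 CPM with oleic acid and 0.0526 to 0.418 CPM without it.

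No gene passed a Benjamini-Hochberg adjusted p of 0.05 in edgeR's quasi-likelihood test of oleic acid (0 of 14209 genes, 0%), and the lowest adjusted p was 0.644. By other tools the count was 0 under limma-voom and 3 under DESeq2, which called LPCAT1 (DESeq2 adjusted p = 0.00755), PDK4 (0.0240) and SCHIP1 (0.0399), all higher with oleic acid. The same fit called 1489 genes (10.5%) for FAC. At an unadjusted p under 0.05, 465 genes (3.27%) were higher and 261 (1.84%) lower with oleic acid, in all 726 (5.11%). Of the 8 genes with an unadjusted p under 0.001 (0.0563% of genes tested), LPCAT1, PDK4, PLIN2, ECH1 and SLC25A20 act in fatty acid or phospholipid metabolism, and SCHIP1, SHISA3 and EBLN2 were the others. EBLN2, named here after its values were seen, was the 1 of the 8 that was lower. LPCAT1, PDK4 and PLIN2 were chosen beforehand with earlier results of these libraries known. The share of fatty acid and phospholipid genes among all genes tested was not counted, so this only describes the 8. With the divergent libraries left out, 0 of 14404 genes (0%) passed, 270 (1.87%) had an unadjusted p under 0.05, 137 (0.951%) higher and 133 (0.923%) lower, the lowest adjusted p was 0.237, and PDK4, CPT1A and LPCAT1 led the order by p.

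The promoters of PDK4, PLIN2 and LPCAT1 are shown because these genes had the smallest unadjusted p among the genes of fatty acid and phospholipid metabolism. Each is 300 bases of RefSeq (GRCh38.p14), from 250 bases before to 50 after the gene's start, written 5′ to 3′ on the minus strand, which all of them use. PDK4 lies at chr7:95596467-95596766, PLIN2 at chr9:19127443-19127742 and LPCAT1 at chr5:1523911-1524210. In GENCODE 29 the genes span 95583499 to 95596491 of chromosome 7 (PDK4), 19108375 to 19149290 of chromosome 9 (PLIN2), 1456480 to 1523977 of chromosome 5 (LPCAT1), 68754620 to 68844410 of chromosome 11 (CPT1A), all protein-coding and on the minus strand (GRCh38.p12). The 2 annotations place the starts differently, and the PLIN2 window lies well inside the GENCODE span of that gene. Capitals mark GC boxes (GGGCGG) and CCAAT boxes (CCAAT), on either strand.
PDK4: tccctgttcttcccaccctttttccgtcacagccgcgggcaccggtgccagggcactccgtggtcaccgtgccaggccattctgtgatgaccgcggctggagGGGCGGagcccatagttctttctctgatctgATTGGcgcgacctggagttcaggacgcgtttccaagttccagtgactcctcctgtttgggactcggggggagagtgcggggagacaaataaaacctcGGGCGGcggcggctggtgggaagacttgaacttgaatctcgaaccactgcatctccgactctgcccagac
PLIN2: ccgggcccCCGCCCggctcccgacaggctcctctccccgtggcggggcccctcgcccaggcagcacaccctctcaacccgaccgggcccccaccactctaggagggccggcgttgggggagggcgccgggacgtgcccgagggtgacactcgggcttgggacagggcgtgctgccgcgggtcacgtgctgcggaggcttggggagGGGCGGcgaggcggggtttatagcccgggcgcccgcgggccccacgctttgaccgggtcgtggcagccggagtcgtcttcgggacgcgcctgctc
LPCAT1: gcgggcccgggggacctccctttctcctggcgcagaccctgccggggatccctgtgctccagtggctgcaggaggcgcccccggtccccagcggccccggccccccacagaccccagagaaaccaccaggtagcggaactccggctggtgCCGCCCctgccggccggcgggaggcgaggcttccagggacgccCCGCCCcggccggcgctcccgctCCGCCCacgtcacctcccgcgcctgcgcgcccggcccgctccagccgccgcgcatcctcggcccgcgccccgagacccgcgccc
The PDK4 window holds 2 GC boxes and a CCAAT box that begins 117 bases before the start, the PLIN2 window 2 GC boxes and the LPCAT1 window 3. GC boxes occur in 44.95% of 35116 promoter windows of this length and CCAAT boxes in 34.6%. The nuclear receptor core motif AGGTCA (13.8% of windows) and 2 copies of it in direct repeat with 1 base between them (AGGTCANAGGTCA, 0.0228% of windows) are not in these 3 windows, which says nothing of other parts of the genes.

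PDK4 differed most of the 4 genes described first. In bulk libraries, more RNA per cell and more cells that express a gene cannot be told apart. PDK4 was measured at 9.28, 7.68 and 5.60 CPM in the oleic acid libraries and at 10.2, 10.1 and 8.38 CPM in the oleic acid + FAC libraries. Vehicle libraries had 4.82, 4.40 and 5.89 CPM, and FAC libraries had 5.53, 5.42 and 4.30 CPM. Oleic acid library 3, 1 of the divergent pair, was the only library with oleic acid that fell within the range of the vehicle libraries, and with FAC the groups did not overlap. PDK4 averaged 8.55 ± 1.75 CPM with oleic acid and 5.06 ± 0.651 CPM without it (SD, n = 6 each), a log2 fold change of 0.75 (SE 0.15, edgeR adjusted p = 0.644). Without the divergent libraries the log2 fold change was 0.87 (SE 0.14, adjusted p = 0.237).

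CPT1A showed the same dependence on the divergent libraries. Its levels were 57.5, 51.8 and 40.5 CPM with oleic acid and 56.9, 51.1 and 35.9 CPM with oleic acid + FAC. Vehicle libraries had 29.8, 42.0 and 34.2 CPM, and FAC libraries had 34.5, 43.3 and 34.6 CPM. The first 2 libraries of each oleic acid group lay above all 6 libraries without oleic acid, and library 3 of each lay among them. CPT1A averaged 48.9 ± 8.86 CPM with oleic acid and 36.4 ± 5.19 CPM without it (SD, n = 6 each), a log2 fold change of 0.43 (SE 0.13, edgeR adjusted p = 0.644) that stood 37th by p. Leaving out the divergent pair gave 0.57 (SE 0.10, adjusted p = 0.376).

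PLIN2 was higher at both iron levels, and more so with FAC. Oleic acid libraries had 17.1, 19.4 and 18.0 CPM and oleic acid + FAC libraries 16.8, 14.8 and 16.6 CPM. Vehicle libraries had 16.2, 15.5 and 14.8 CPM and FAC libraries 9.62, 8.63 and 10.1 CPM. Within neither iron level did the groups overlap, and the FAC libraries were the lowest of the 12. PLIN2 averaged 17.1 ± 1.52 CPM with oleic acid and 12.5 ± 3.38 CPM without it (SD, n = 6 each), and its log2 fold change was 0.49 (SE 0.11, edgeR adjusted p = 0.644). In the 10 other libraries it was 0.47 (SE 0.11, adjusted p = 1.00). The log2 fold change was 0.76 (SE 0.12) with FAC and 0.23 (SE 0.12) without FAC. The difference between these was 0.53 (SE 0.17), with an unadjusted edgeR p of 0.0076 and an adjusted p of 1.00. FAC itself lowered PLIN2 in this fit (log2 fold change -0.44, adjusted p = 0.0184).

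LPCAT1 was the first gene by p. It was measured at 457, 330 and 367 CPM with oleic acid and 477, 362 and 416 CPM with oleic acid + FAC. Vehicle libraries had 312, 252 and 236 CPM and FAC libraries 306, 234 and 247 CPM. All 6 libraries with oleic acid lay above all 6 without it. It averaged 401 ± 57.9 CPM with oleic acid and 265 ± 35.2 CPM without it (SD, n = 6 each), a log2 fold change of 0.60 (SE 0.11, edgeR adjusted p = 0.644). Without the divergent libraries the value was 0.61 (SE 0.12, adjusted p = 0.647). LPCAT1 was also the most abundant of the 4 genes per length, at 115 CPM per kilobase with oleic acid and 75.7 without it. PLIN2 stood at 8.84 CPM per kilobase with oleic acid and 6.45 without it, CPT1A at 9.85 with it and 7.33 without it, and PDK4 at 2.46 with it and 1.46 without it.

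**Figure D1:**
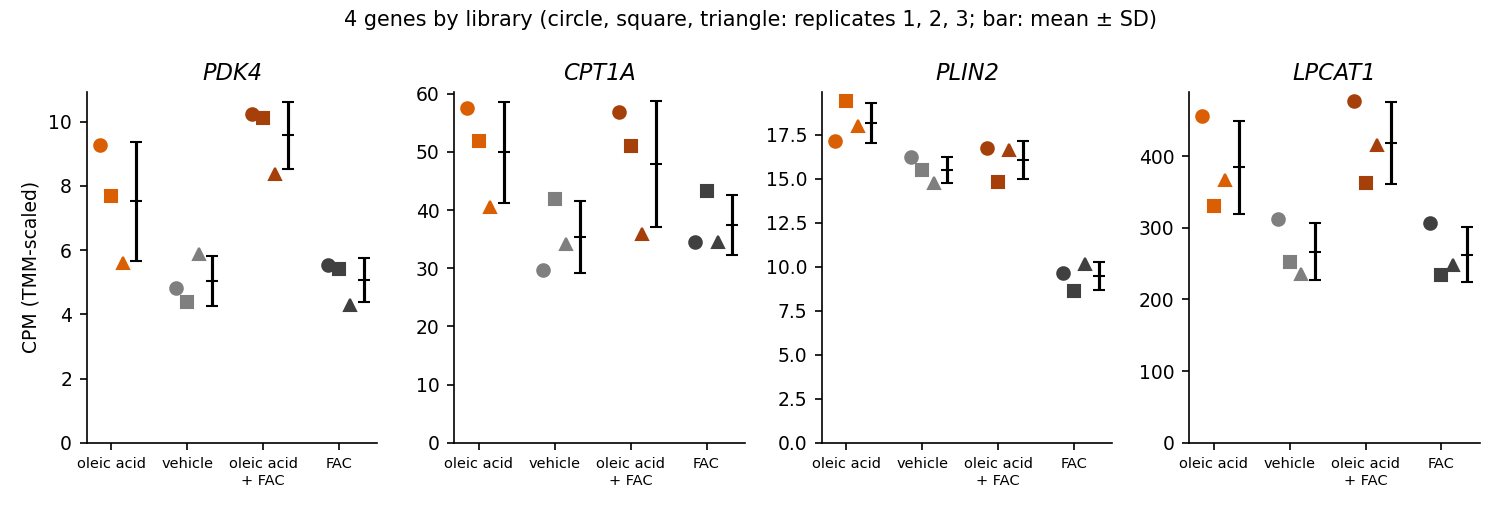
CPM of PDK4, CPT1A, PLIN2 and LPCAT1 in each of the 12 libraries (y axis, from 0), with oleic acid groups left of their references; circles, squares and triangles are replicates 1, 2 and 3, and the bar is the group mean ± SD (n = 3). All LPCAT1 values with oleic acid (330 to 477 CPM) lie above all those without it (234 to 312 CPM), while library 3 of each oleic acid group (40.5 and 35.9 CPM of CPT1A) lie among the libraries without oleic acid.

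The 4 genes were also tested singly, by an exact two-sided permutation of the oleic acid labels within each iron level. The 400 arrangements allow no p below 0.005. The exact p was 0.005 for PLIN2 and for LPCAT1, 0.01 for PDK4 and 0.025 for CPT1A. In the 10 libraries without the divergent pair, where 100 arrangements allow no exact p below 0.01, it was 0.01 for PDK4, PLIN2 and LPCAT1 and 0.02 for CPT1A. These 4 genes were chosen with earlier results of the same libraries known, and the p-values are not adjusted for that choice. With 1 library left out, 200 arrangements allow no exact p below 0.005. The exact permutation p of CPT1A was then 0.055 or 0.06 without vehicle library 1 or 3, oleic acid library 1 or 2, FAC library 1 or 3, or oleic acid + FAC library 1 or 2. Its mean difference in log2 CPM was 0.35 to 0.41 in those 8 settings, against 0.42 with all libraries. The difference in log2 CPM with 1 library left out was 0.64 to 0.82 for PDK4, 0.46 to 0.52 for PLIN2 and 0.53 to 0.66 for LPCAT1, with exact p-values of 0.005 to 0.015.

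The main protein-coding transcript of PDK4, CPT1A and PLIN2 carried the gene's difference, and for LPCAT1 the transcripts did not divide evenly. No transcript of 51464 tested passed the adjusted threshold (0%), and 1821 (3.54%) had an unadjusted p under 0.05. PDK4-201, which held 93.2% of the counts of the gene's matched transcripts, averaged 8.08 ± 2.02 CPM with oleic acid and 4.68 ± 0.405 CPM without it (log2 fold change 0.76). CPT1A-201 averaged 45.3 ± 7.74 CPM with oleic acid and 33.1 ± 4.18 CPM without it (0.45). PLIN2-201 averaged 16.5 ± 1.82 CPM with oleic acid and 12.3 ± 3.50 CPM without it (0.46). For LPCAT1, only 25.9% of the gene's counts lay on transcripts matched by identifier in GENCODE 29, and the rest cannot be assigned to a transcript here. LPCAT1-201, the protein-coding one, averaged 59.3 ± 23.7 CPM with oleic acid and 50.5 ± 8.66 CPM without it (0.23). It was at 38.4 and 27.5 CPM in the divergent libraries, below all libraries without oleic acid (39.6 to 61.6 CPM). In the other 4 with oleic acid it was at 59.1 to 85.6 CPM. LPCAT1-203, annotated as a processed transcript, had 90.6 and 142 CPM in the divergent libraries, 12.2 to 40.2 CPM in the other 4 with oleic acid and 5.97 to 21.5 CPM without it. The unmatched remainder of LPCAT1 stood at 358, 255 and 235 CPM with oleic acid and 371, 263 and 242 CPM with oleic acid + FAC. It stood at 250, 183 and 187 CPM with vehicle and 245, 188 and 164 CPM with FAC. In both pairs the groups of this remainder overlapped through the lowest oleic acid library and the highest library without it. All transcripts named here had an edgeR adjusted p of 0.979.

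Among the other genes of fatty acid oxidation, SLC25A20, ECH1, ACAA2, ETFB and ACADVL were higher at an unadjusted p under 0.05. SLC25A20, the carrier of acylcarnitines across the inner mitochondrial membrane, was at 15.9, 18.7 and 17.6 CPM with oleic acid and 18.0, 18.6 and 17.3 CPM with oleic acid + FAC. Vehicle libraries had 15.3, 11.5 and 14.4 CPM and FAC libraries 14.4, 12.5 and 13.5 CPM. All 6 libraries with oleic acid lay above all 6 without it, although the first oleic acid library exceeded the first vehicle library by little. The log2 fold change was 0.38 (SE 0.09, edgeR adjusted p = 0.644), and 0.38 again without the divergent libraries.

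ECH1, a dienoyl-CoA isomerase that helps to oxidise unsaturated fatty acids, was at 70.3, 85.9 and 110 CPM with oleic acid and 86.6, 118 and 127 CPM with oleic acid + FAC. Vehicle libraries had 69.8, 70.4 and 57.4 CPM and FAC libraries 68.7, 70.1 and 71.9 CPM. The first oleic acid library overlapped the vehicle libraries, and the divergent libraries were the highest of their groups. The log2 fold change was 0.54 (SE 0.12) with all libraries and 0.39 (SE 0.10) without the divergent pair. Of the counts of ECH1 50.0% lay on matched transcripts, and the remainder had nearly the same values: 49.8 CPM with oleic acid and 34.0 CPM without it on both. The 2 parts were equal or nearly so in every library (34.9 CPM on both in vehicle library 1). The remainder is therefore not a separate measurement of the difference.

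ACAA2, the mitochondrial thiolase of the last step of β-oxidation, averaged 91.9 ± 6.61 CPM with oleic acid and 76.0 ± 4.39 CPM without it (SD, n = 6 each; log2 fold change 0.27, and 0.24 without the divergent libraries). ETFB, a subunit of the electron transfer flavoprotein, averaged 66.7 ± 10.0 CPM with oleic acid and 54.6 ± 4.44 CPM without it (0.29 and 0.26). ACADVL, the very long-chain acyl-CoA dehydrogenase, averaged 87.3 ± 11.8 CPM with oleic acid and 74.7 ± 8.98 CPM without it (0.23 and 0.17). ACADVL was the 1 of these whose unadjusted edgeR p passed 0.05 with the divergent libraries only.

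Of the 25 genes listed as PPAR-responsive 20 were tested, and 7 had an unadjusted p under 0.05, all higher with oleic acid: PDK4, PLIN2, ECH1, CPT1A, SLC25A20, ACAA2 and ACADVL. Over all genes 3.27% were higher at that threshold. Leaving out the divergent libraries kept 6 of the 7, where 0.951% of all genes were higher. None of the 20 passed the adjusted test. The list's median log2 fold change was 0.09 with all libraries and 0.08 without the divergent pair, beside a median of -0.00 and -0.01 over all genes. The other 13 had log2 fold changes of -0.08 (SLC22A5, CPT2 and CAT) to 0.48 (UCP3), and core oxidation enzymes were close to 0: HADHA and HADHB, the subunits of the trifunctional protein, at -0.03 each, and ACADM at 0.00. ANGPTL4, FABP3, CD36 and CIDEC were among the members too low to be tested, at no more than 0.478 CPM in any library. The list was written with earlier results of these libraries known, so its count is a description.

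All 34 genes of fatty acid oxidation were tested, and 7 were higher at an unadjusted p under 0.05 and 0 lower, where 3.27% of all genes were higher and 1.84% lower. Without the divergent pair the counts were 6 and 0, where 0.951% of all genes were higher and 0.923% lower. These are the PPAR-responsive genes above without PLIN2 and with ETFB, since the lists share members. The oxidation list, too, was written with earlier results of these libraries known, so its counts are a description. It holds CPT1A and also PDK4, which acts on pyruvate dehydrogenase, both chosen beforehand from such results. The median log2 fold change was 0.05 with and without the divergent pair, and -0.01 with a trend on transcript length removed from each library, an alternative chosen after seeing the data. CPT1B, the muscle form of CPT1A, had a log2 fold change of -0.29 and CPT1C, the brain form, of -0.05. The 27 members that missed the unadjusted threshold ran from -0.29 to 0.25.

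In the lipid droplet and triglyceride list, 25 of 33 genes were tested and PLIN2 and BSCL2 had an unadjusted p under 0.05, both higher, where 3.27% of all genes were. BSCL2, or seipin, a protein of the contacts between the endoplasmic reticulum and droplets, was at 5.37, 8.16 and 14.8 CPM with oleic acid and 5.24, 6.58 and 17.1 CPM with oleic acid + FAC. Vehicle libraries had 8.83, 6.25 and 5.84 CPM and FAC libraries 5.14, 5.32 and 5.07 CPM. The divergent libraries were the highest by far, and the log2 fold change of 0.65 became 0.07 without them, which left PLIN2 as the 1 member at an unadjusted p under 0.05. The other droplet coat proteins tested were near 0 or lowly expressed: PLIN3 had a log2 fold change of -0.03, and PLIN1 averaged 0.345 CPM with oleic acid and 0.448 CPM without it. PNPLA2, the triglyceride lipase, stood at 0.08, DGAT1 at 0.04 and DGAT2 at 0.16, and the last 2 make triglyceride.

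Fatty acid synthesis and phospholipid genes gave few members past the unadjusted threshold. Of 27 genes of synthesis, elongation and desaturation tested, ELOVL6, which elongates palmitate, averaged 52.4 ± 7.56 CPM with oleic acid and 44.5 ± 5.04 CPM without it (log2 fold change 0.23, and 0.15 without the divergent libraries). SREBF1, the master regulator of lipogenesis, averaged 11.4 ± 2.35 CPM with oleic acid and 15.4 ± 3.46 CPM without it (-0.43 and -0.32), and passed the unadjusted threshold only with all 12 libraries. SCD, the desaturase that makes oleate, had a log2 fold change of -0.19, and -0.05 without the divergent pair. ACACA, acetyl-CoA carboxylase, was at 0.03 with all libraries and at 0.22 at an unadjusted p under 0.05 without the pair. Of 33 acyl-CoA activation and phospholipid remodelling genes, LPCAT1 and AGPAT2 were higher at an unadjusted p under 0.05 (3.27% of all genes were). LPCAT1 alone was so without the divergent libraries (0.951% of all genes were). AGPAT2, an acyltransferase of phosphatidic acid synthesis, had log2 fold changes of 0.26 and 0.15 in the larger and the smaller set. The medians of the synthesis and phospholipid lists were 0.01 and -0.02.

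The cholesterol list (25 genes tested) had 0 members at an unadjusted p under 0.05 with all libraries. Without the divergent pair it had 1, which was higher. Of 8 LXR-responsive genes SREBF1 alone passed with all libraries, and lower, where 1.84% of all genes were lower. Of the 24 ferroptosis and lipid peroxidation genes tested, 0 passed with all libraries. Without the divergent pair 1 passed, CYB5R1, at a log2 fold change of 0.22, where 0.951% of all genes were higher. GPX4, the peroxidase that clears phospholipid hydroperoxides, had a log2 fold change of 0.24, and of 0.02 without the divergent libraries. TFRC, the transferrin receptor, had -0.32 and -0.13, and CHAC1, which degrades glutathione, 0.54 and 0.15. In each of these 3 genes the smaller set gave the smaller difference.

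**Figure D2:**
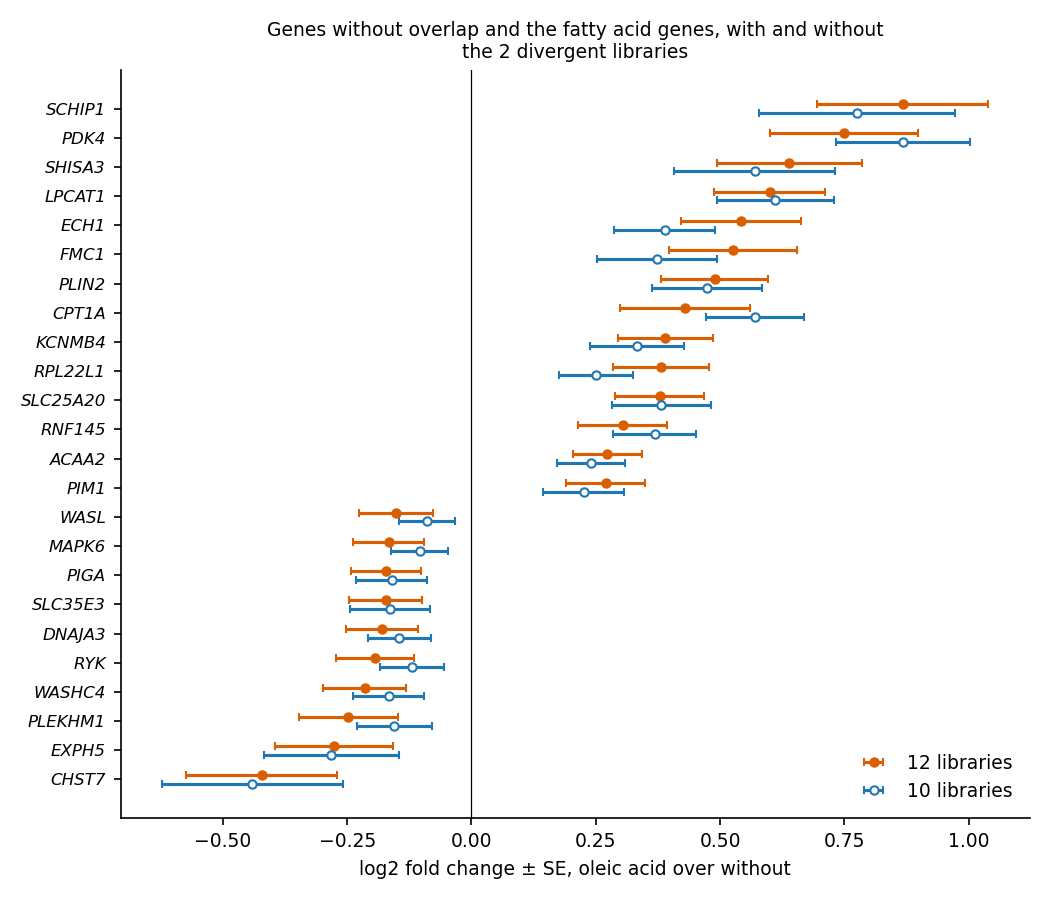
Log2 fold change of oleic acid over without (x axis, ± SE) for the genes named from the 6 against 6 comparison, in all 12 libraries (filled) and without the divergent pair (open). PDK4 (0.75 and 0.87) and CPT1A (0.43 and 0.57) are larger in the open points, and ECH1 (0.54 and 0.39) and FMC1 (0.53 and 0.37) are smaller.

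Groups that did not overlap within either iron level were found for 30 higher genes (0.211% of genes tested) and 17 lower genes (0.12%). The 400 arrangements of labels within iron levels include a single arrangement that separates a gene this way in each direction, so these counts are descriptions. The non-overlapping genes named outside fatty acid metabolism were few and of varied function. SCHIP1, which binds the tumour suppressor merlin, was at 5.78, 4.08 and 6.20 CPM with oleic acid and 3.26, 4.43 and 4.26 CPM with oleic acid + FAC. Vehicle libraries had 2.78, 3.30 and 3.58 CPM and FAC libraries 1.50, 2.32 and 2.03 CPM. The log2 fold change was 0.87 (SE 0.17, edgeR adjusted p = 0.644) and 0.78 without the divergent pair. SCHIP1 shares exons with the readthrough gene IQCJ-SCHIP1, whose log2 fold change was 0.02, and counts between them may be split unevenly.

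SHISA3, an inhibitor of Wnt and FGF receptor maturation, averaged 4.35 ± 0.534 CPM with oleic acid and 2.79 ± 0.343 CPM without it (log2 fold change 0.64), and all 6 libraries with oleic acid (3.84 to 5.32 CPM) lay above all 6 without it (2.47 to 3.27 CPM). FMC1, an assembly factor of mitochondrial ATP synthase, had a log2 fold change of 0.53, KCNMB4, a subunit of calcium-activated potassium channels, of 0.39, and RPL22L1, a ribosomal protein paralogue, of 0.38. PIM1, a serine/threonine kinase, was at 0.27, and RNF145, a sterol-responsive ubiquitin ligase of the endoplasmic reticulum, at 0.30. RNF145 was at 162, 138 and 128 CPM with oleic acid and 197, 144 and 146 CPM with oleic acid + FAC, against 115, 111 and 110 CPM with vehicle and 134, 132 and 139 CPM with FAC. Its log2 fold change was 0.37 without the divergent pair, where it stood 5th by p.

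The 10 named lower genes had log2 fold changes of -0.42 to -0.15. CHST7, a sulfotransferase of glycosaminoglycans, averaged 2.86 ± 0.155 CPM with oleic acid and 3.84 ± 0.663 CPM without it (log2 fold change -0.42, and -0.44 without the divergent pair). The other 9 ran from -0.28 to -0.15, and from -0.28 to -0.09 without the pair. They include WASHC4 and WASL, which act on actin assembly at endosomes and membranes, PLEKHM1, an adaptor of lysosome fusion, RYK, a Wnt receptor, PIGA, of glycolipid anchor synthesis, DNAJA3, a mitochondrial cochaperone, MAPK6, EXPH5 and SLC35E3. With the divergent pair left out the non-overlapping genes numbered 72 higher (0.5%) and 71 lower (0.493%). Non-overlap is easier to meet there, by a single arrangement in each direction out of only 100. These counts therefore cannot be set against those with all libraries.

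Ribosomal and oxidative phosphorylation genes had positive medians that were smaller without the divergent libraries. Of 75 cytosolic ribosomal protein genes, 75 had a positive log2 fold change (49.9% of all genes did), 51 were higher at an unadjusted p under 0.05 (3.27% of all genes were) and the median was 0.33. All 75 stayed positive without the divergent pair (46.1% of all genes were), the median was 0.11 and 1 gene, RPS29, was higher at an unadjusted p under 0.05 (0.951% of all genes were). RPS18 was at 1298, 1412 and 2059 CPM with oleic acid and 1782, 2054 and 2747 CPM with oleic acid + FAC. Vehicle libraries had 1511, 1234 and 1143 CPM and FAC libraries 1528, 1348 and 1772 CPM, so that the divergent libraries were the highest of the 12. Of 75 nuclear genes of oxidative phosphorylation, 22 were higher at an unadjusted p under 0.05, against the same 3.27% of all genes, with a median of 0.27, and 0 without the pair, with a median of 0.04. COX6C, a subunit of cytochrome c oxidase, had a log2 fold change of 0.38, and of 0.11 without the pair. The 13 mitochondrially encoded mRNAs had a median of 0.51 and of 0.10 without the pair, with 0 at an unadjusted p under 0.05 in either.

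These groups have short transcripts, with a median length of 710 bases for ribosomal and 842 bases for oxidative phosphorylation genes, against 2806 bases for all genes. With the length trend removed, 60 of 75 ribosomal protein genes had a positive log2 fold change (50.2% of all genes did), 3 were higher at an unadjusted p under 0.05 and the median was 0.05. Over all genes 297 of 14016 were higher at that threshold with the trend removed. RPS18 was then at 0.10, while RPS29 (-0.01) and RPS21 (-0.03) turned negative. The same alternative gave a median of 0.03 for nuclear oxidative phosphorylation genes, with 2 of 75 higher at an unadjusted p under 0.05, and of 0.23 for the mitochondrially encoded mRNAs. When genes at a mean log2 CPM of 1 or more were ranked by length and divided into 4 equal bins, in the shortest bin 329 of 3074 were higher and 4 lower at an unadjusted p under 0.05, and the median log2 fold change was 0.17. In the longest bin 5 of 3074 were higher and 126 lower, with a median of -0.13. Without the divergent pair the counts were 27 higher and 12 lower in the shortest bin and 22 and 14 in the longest, and the medians were 0.01 and -0.03. Of the 465 genes higher at an unadjusted p under 0.05 in all libraries, 71 were also so without the divergent pair, and of the 261 lower genes 58 were. These sets are nested, since the smaller is part of the larger.

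**Figure D3:**
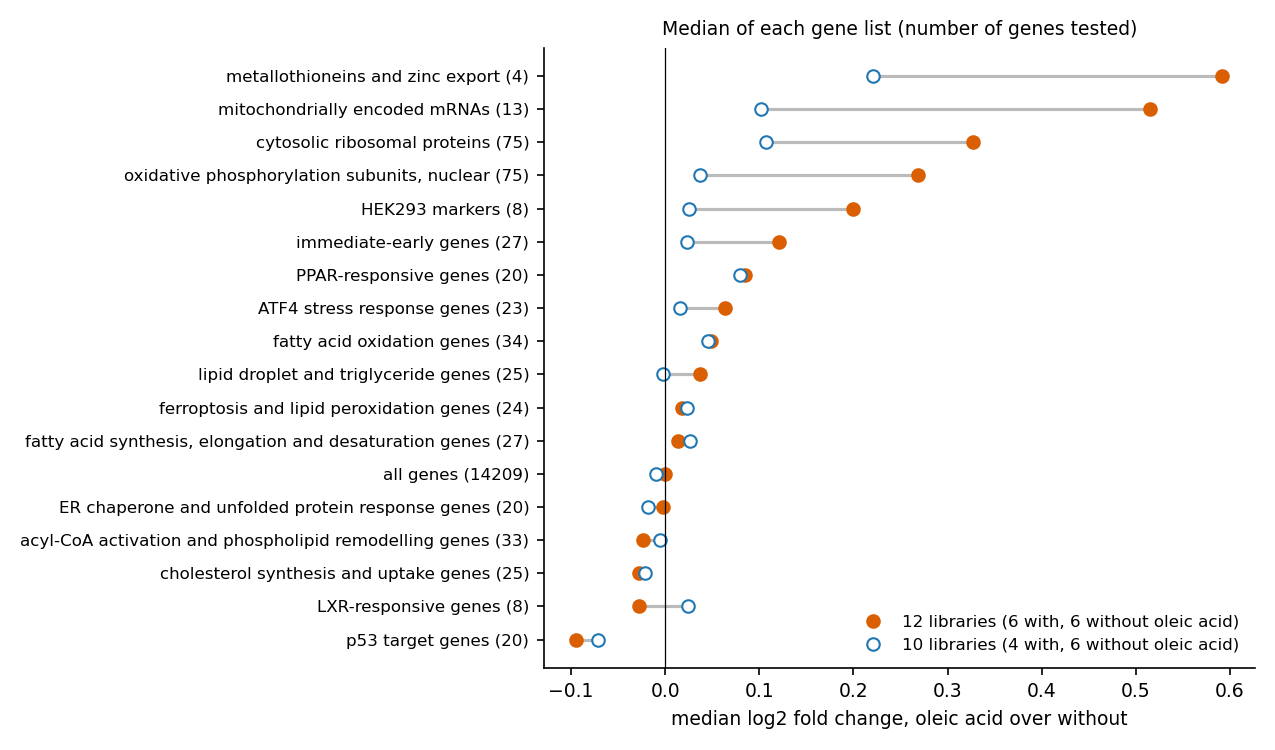
Median log2 fold change of oleic acid over without (x axis) of each gene list, with the number of genes tested, in all 12 libraries (filled) and without the 2 divergent libraries (open). Metallothionein and zinc export genes (0.59 and 0.22), mitochondrial mRNAs (0.51 and 0.10), ribosomal proteins (0.33 and 0.11) and nuclear oxidative phosphorylation genes (0.27 and 0.04) are smaller in the open points. PPAR-responsive genes (0.09 and 0.08) and fatty acid oxidation genes (0.05 in both) differ little.

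Stress and signalling lists gave isolated members. Of the metallothioneins, metal-binding proteins, MT1X averaged 21.9 ± 8.56 CPM with oleic acid and 13.9 ± 2.73 CPM without it (SD, n = 6 each). MT2A was at 25.5, 30.6 and 59.2 CPM with oleic acid and 32.3, 35.5 and 55.2 CPM with oleic acid + FAC, against 30.5, 24.7 and 25.2 CPM with vehicle and 31.7, 22.6 and 29.5 CPM with FAC. The divergent libraries were again the highest, and the log2 fold changes of 0.65 (MT1X) and 0.54 (MT2A) became 0.27 and 0.17 without them. Their sequences are similar to those of other metallothioneins, so counts may be shared among paralogues. Of 27 immediate-early genes tested, EGR1 and IER2 were higher at an unadjusted p under 0.05 with all libraries, where 3.27% of all genes were. Neither passed it without the divergent pair, where KLF10 did (log2 fold change 0.15) and 0.951% of all genes were higher. EGR1, an early transcription factor, was at 58.9, 46.1 and 46.5 CPM with oleic acid, against 28.6, 21.9 and 34.6 CPM with vehicle. With FAC it was at 69.5, 108 and 125 CPM with oleic acid + FAC and 70.1, 99.1 and 108 CPM with FAC. The vehicle libraries lay below all others, and the log2 fold change was 0.83 without FAC and 0.12 with FAC (unadjusted edgeR p of the difference 0.048, adjusted p = 1.00). Without the divergent pair these values of EGR1 were 0.88 without FAC and -0.07 with FAC. IER2 averaged 61.2 ± 14.5 CPM with oleic acid and 49.9 ± 8.77 CPM without it (SD, n = 6 each; log2 fold change 0.29, and 0.11 without the pair). Of the ATF4 list (23 tested) SESN2 was lower (log2 fold change -0.18), and of the p53 list (20 tested) SESN2 and DDB2 (-0.23), each at an unadjusted p under 0.05 in the larger set only. Over all genes 1.84% were lower at that threshold in the larger set. Of 20 chaperone and unfolded protein response genes 0 passed in either set.

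The effect was also set side by side at the 2 iron levels, which share no library. For PDK4 the log2 fold change was 0.91 (SE 0.21) with FAC and 0.58 (SE 0.21) without FAC, for CPT1A 0.36 (SE 0.19) with FAC and 0.50 (SE 0.19) without, and for LPCAT1 0.67 (SE 0.16) with FAC and 0.53 (SE 0.16) without. No interaction of oleic acid and FAC passed the adjusted test (0 of 14209 genes, 0%), and 116 genes (0.816%) had an unadjusted p under 0.05. Within one iron level, 576 genes (4.05%) with FAC and 118 (0.83%) without FAC had an unadjusted p under 0.05, and 0 passed the adjusted test in either. Across 12408 genes the 2 effects correlated at r = 0.47 and had the same sign in 72.1%. Without the divergent pair, 1 library from each iron level, r was -0.03 over 12440 genes and 47.5% had the same sign. Genes are not independent replicates, and the points share libraries within each axis. The 20 PPAR-responsive genes gave r = 0.35 with 14 of the same sign in all libraries, and r = 0.43 with 13 of the same sign without the pair. In that smaller set the log2 fold changes of PDK4 were 0.99 with FAC and 0.74 without, of CPT1A 0.52 and 0.63, of PLIN2 0.73 and 0.23, and of LPCAT1 0.67 and 0.56.

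**Figure D4:**
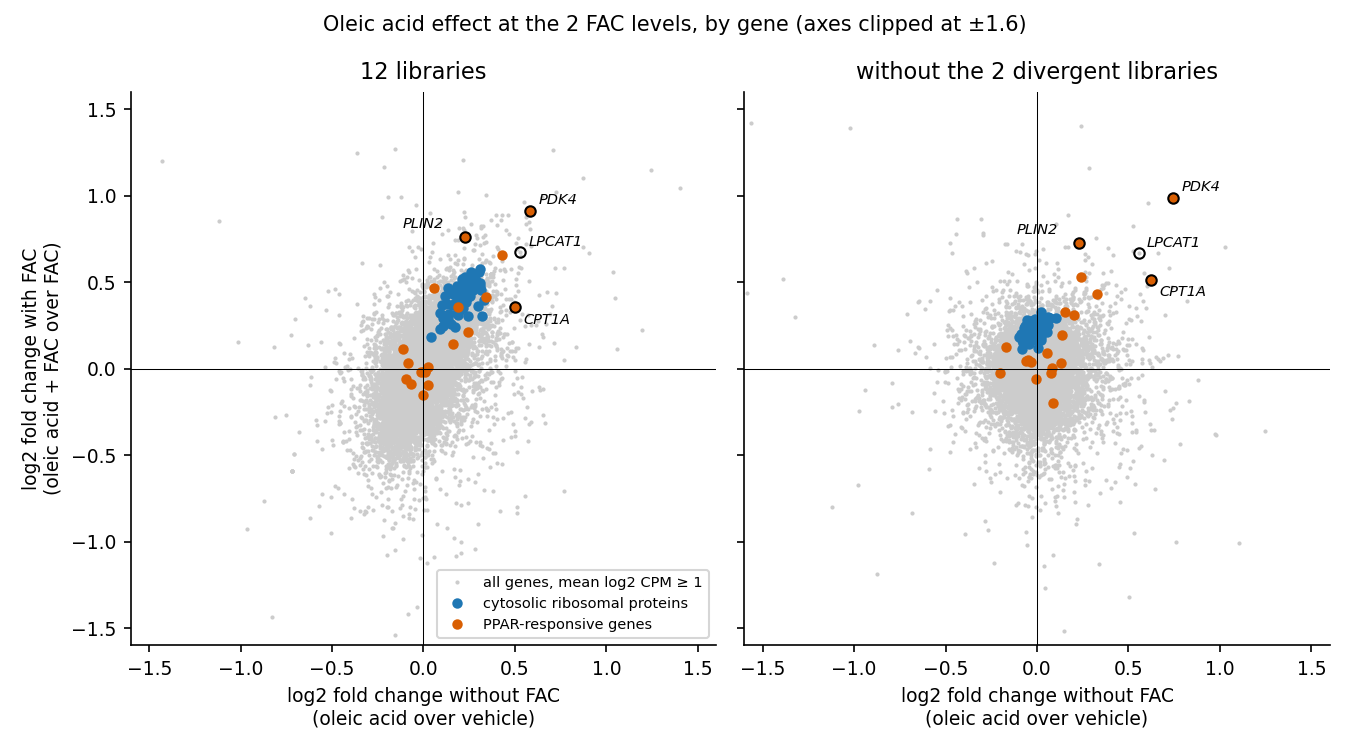
Log2 fold change of oleic acid with FAC (y axis, oleic acid + FAC over FAC) against that without FAC (x axis, oleic acid over vehicle) per gene, in all 12 libraries (left) and without the 2 divergent libraries (right); grey points are all genes at a mean log2 CPM of 1 or more, blue ribosomal protein genes and orange PPAR-responsive genes. The diagonal spread on the left (r = 0.47) is absent on the right (r = -0.03), while PDK4, CPT1A, PLIN2 and LPCAT1 stay above 0 on both axes in both.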

How the data were processed

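Poly-A RNA was sequenced with Illumina TruSeq libraries, per the labels' protocols, from 12 samples of HEK293 cells in 4 groups of 3. The authors deposited estimated counts from kallisto per gene symbol and per transcript, per the labels. The submitters' processing notes also name bcl2fastq 2.19, kallisto 0.46.1, sleuth 0.30.0 and GRCh38.p12 (hg38). The deposited values were whole numbers. The symbol table has 36459 symbols, and 97.1% were found in GENCODE 29; 89.9% of 188753 transcripts were matched by identifier without version.

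Genes were kept by filterByExpr of edgeR 4.0.16 (R 4.3.3) with the 4 groups and scaled by TMM. One quasi-likelihood fit with FAC and oleic acid as terms gave two-sided tests over all genes, with Benjamini-Hochberg adjustment at 0.05. The interaction, the within-iron effects and the transcripts were fitted likewise. CPM is the count over the TMM-scaled library total, and floors cover counting error only. Alternatives were limma-voom (limma 3.58.1), DESeq2 1.42.0, svaseq (sva 3.50.0), other scaling, no filter, a replicate block, a length trend and libraries left out. The steps were tested on simulated data. Every replicate pair differed by more than counting noise (chi-square per degree of freedom 8.14 to 122).

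The genes, lists and libraries to leave out were chosen with earlier results of these data known. Named genes were PDK4, CPT1A, PLIN2 and LPCAT1, the 10 genes per direction of smallest unadjusted p among genes at 1 or more mean log2 CPM with no overlap within either iron level, since none passed the adjusted test, and up to 4 members per list. Members of lists named beyond these (ETFB, ACADVL, UCP3, PLIN3, CPT1B and the like), and IQCJ-SCHIP1, were chosen after their values were seen. A few members of the lists are not reported here.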

Additional observations from a re-analysis of the deposited data

Results flagged for a closer look

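In 6 of 162 sets of 6 libraries examined for the named genes, 1 library lay far from the other 5 by Dixon's ratio at its 95% critical value. Of these 6, 3 were divergent libraries. Chance flags about 1 in 20 sets drawn from a single group. Each set here pooled 3 libraries with FAC and 3 without, so that rate need not hold. PLEKHM1 was at 12.1 CPM in oleic acid + FAC library 3, against 16.4 CPM or more in the other 5 with oleic acid. WASL was at 57.5 CPM in oleic acid library 3, against 74.8 CPM or more. FOS was at 29.5 CPM in oleic acid + FAC library 3, against 13.6 CPM or less, and it was also higher with FAC (log2 fold change 1.56, edgeR adjusted p = 0.00198). Among the libraries without oleic acid, ECH1 was at 57.4 CPM in vehicle library 3, against 68.7 CPM or more in the other 5. BSCL2 was at 8.83 CPM in vehicle library 1, against 6.25 CPM or less. GCLC, the catalytic subunit of glutathione synthesis, was at 60.2 CPM in vehicle library 3, against 53.7 CPM or less.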

How the results depend on the processing

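The count of genes past the adjusted threshold was 0 under edgeR with RLE factors, with no filter, as the mean of the within-iron effects, under limma-voom with or without quality weights, without the divergent pair, without all 4 libraries numbered 3, with the length trend removed (an alternative chosen after seeing the data) and without any 1 library (range 0 to 0). It was 3 under DESeq2 (LPCAT1, PDK4 and SCHIP1) and 1 with 1 surrogate variable (CPT1A, adjusted p = 0.00393). The labels do not say what a replicate number marks. Deviations of same-numbered libraries correlated at -0.29 to 0.78, above 0.1 in 13 of 18 pairs, and 8 of 12 libraries correlated best with their own number, a hint of pairing that fell short of every pair, so the numbers were not taken to pair the libraries. With a replicate block the count was 1 (LPCAT1, edgeR adjusted p = 0.00593). In that fit 1922 genes (13.5%) had an unadjusted p under 0.05, against 726 (5.11%) without the block. The count past the adjusted threshold was also 1 with the block and without the divergent pair (LPCAT1, adjusted p = 0.036). It was 6 with the block and the length trend removed (ANXA1, B4GALT5, CPT1A, ECH1, LPCAT1 and RALA). The causes of these differences were not tested. PLIN2 passed in no alternative (adjusted p = 0.176 to 1.00). Interaction, transcript and within-iron counts stayed at 0 in every alternative run. The exact permutation p of CPT1A ran from 0.02 to 0.06 with each library left out, the highest and lowest of 12 values. Of 81 named genes tested, 68 kept their sign in every alternative that gave them a value (25, or 24 for PLIN1). Depth limits the lowest genes, since 3 counts came to 0.158 to 0.224 CPM.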
